A study of Homo sapiens with 4 samples.

Results

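Of the 19775 genes named on the array, 7 that activate, inactivate, carry, sense or answer to thyroid hormone are described here, as read on 16 of its 54675 probe sets. They are the deiodinase genes DIO1 and DIO3, the transporter gene SLC16A10, the plasma carrier gene SERPINA7, the receptor genes THRA and THRB, and THRSP, a hormone-responsive gene. A probe set was taken where the platform annotation names 1 gene and that gene is one of these. The 7 genes were chosen by their role and with their LSD1 knockdown minus control differences on these arrays in view, DIO1 standing among the largest of them. The knockdown differences of the 7 genes are therefore given as descriptions and carry no test.

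Messenger RNA of HepG2 cells, a line grown from a human liver tumour, was read on 4 Affymetrix arrays (HG-U133 Plus 2.0). Knockdown cells (LSD1-KD, 2 arrays) had been given small interfering RNA (siRNA) against LSD1, the histone demethylase encoded by KDM1A, with siRNA-1 on one array and siRNA-2 on the other. Control cells (Cont, 2 arrays) had been given an siRNA against GL3, a luciferase sequence. Cells of both groups grew in medium with 25 mM glucose and 10% heat-inactivated serum, were transfected near 50% confluence and were harvested for RNA after 4 days. Whether the arrays within a group came from separate cultures is not labelled, so the spread between them may be technical. Each siRNA was read on 1 array only. RNA came from whole cultures, in which fewer cells of a type and less RNA per cell cannot be told apart.

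Thyroid hormone leaves the thyroid mainly as the prohormone thyroxine (T4), travels in plasma bound to thyroxine-binding globulin, transthyretin and albumin, and enters cells through membrane transporters. Deiodinases, which are selenoproteins, then remove iodine: type 1 (DIO1, abundant in liver) and type 2 make the active hormone T3, and type 3 (DIO3) inactivates both T4 and T3. T3 binds nuclear receptors that pair with retinoid X receptors on DNA, and DIO1 and THRSP are among the genes that these receptors switch on in liver.

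The promoters of DIO1 and SERPINA7 are shown because these were the 2 of the 7 genes that stood at least 2-fold above the control mean with each siRNA. Capitals mark the hexamer AGGTCA, the half-site that thyroid hormone receptors bind, or its reverse complement TGACCT. Each line holds the 250 bases before the annotated start, 5′ to 3′ on the strand of the gene, from RefSeq (GRCh38.p14). DIO1 lies at chr1:53893937-53894186 on the plus strand and SERPINA7 at chrX:106038728-106038977 on the minus strand.
DIO1: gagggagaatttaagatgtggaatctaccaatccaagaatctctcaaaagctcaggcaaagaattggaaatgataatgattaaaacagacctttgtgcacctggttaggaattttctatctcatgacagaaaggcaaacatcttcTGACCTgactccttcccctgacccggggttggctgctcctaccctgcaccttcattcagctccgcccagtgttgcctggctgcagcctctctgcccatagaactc
SERPINA7: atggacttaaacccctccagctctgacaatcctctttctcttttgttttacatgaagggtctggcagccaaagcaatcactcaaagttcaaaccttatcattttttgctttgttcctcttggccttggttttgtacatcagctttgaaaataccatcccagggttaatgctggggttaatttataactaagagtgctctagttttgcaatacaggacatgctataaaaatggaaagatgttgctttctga
The DIO1 window held 1 half-site, on the opposite strand, at positions -105 to -100 from the start. The SERPINA7 window held 0, and so did those of DIO3, SLC16A10, THRA, THRB and THRSP. A half-site on either strand was found in 12.1% of 35116 promoter windows of this length. A pair of half-sites in 1 direction with 4 bases between them (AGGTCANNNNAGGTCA, either strand) was found in 5 windows, or 0.0142%, and in none of these genes. A match is letters only and no measurement of binding.

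The deposited values come from RMA and are treated as log2. Within each probe set they are centred on the median of the 4 arrays, so they show differences and no levels. Centring also gives the 2 middle arrays of a probe set values of equal size and opposite sign, as in DIO1 below. A brightness class (8 or above, 4 to 8, or below 4) was inferred from the rounding step in which values are stored, and the probe set used for each of the 7 genes was at 4 or above. KDM1A, the targeted gene, read -1.55 and -1.17 on the LSD1-KD arrays, against 1.23 and 1.17 on the Cont arrays, and both knockdown arrays lay below both controls. The LSD1-KD arrays differed from each other by more than 2-fold in 756 genes and the Cont arrays in 0. The siRNA-2 array stood apart, with an SD over all probe sets of 0.38, against 0.20 for siRNA-1 and 0.16 and 0.15 for the Cont arrays, so member values are given for each siRNA. Technical controls differed along the same split of arrays. Hybridization spike-ins, added in fixed amounts, read 0.61 and 0.65 on LSD1-KD arrays and -0.69 and -0.61 on Cont arrays. The 5′ over 3′ signal of ACTB, a measure of RNA or labelling quality, read -0.26 and -0.38 on LSD1-KD arrays and 0.34 and 0.23 on Cont arrays. Their part in the differences below was not tested. None of 13 measured hepatocyte markers fell in the lowest brightness class, against 7 of 11 thyroid follicle markers, 6 of 7 endothelial, 2 of 9 stromal and 2 of 6 blood cell markers.

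Of the 7 genes, 4 were higher (DIO1, SLC16A10, SERPINA7 and THRB) and 1 was lower (DIO3) on both LSD1-KD arrays than on both Cont arrays, while THRA and THRSP overlapped. Over all genes, 23.7% were higher and 25.3% lower by the same criterion. The difference of at least 2-fold with each siRNA, met by DIO1 and SERPINA7, was met by 0.673% of all genes on the higher side and 0.238% on the lower side. Since the genes were chosen with these values known, nothing is read from the comparison with the background. The median difference was 0.38 over the 7 genes and -0.00 over all genes.

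**Figure D1:**
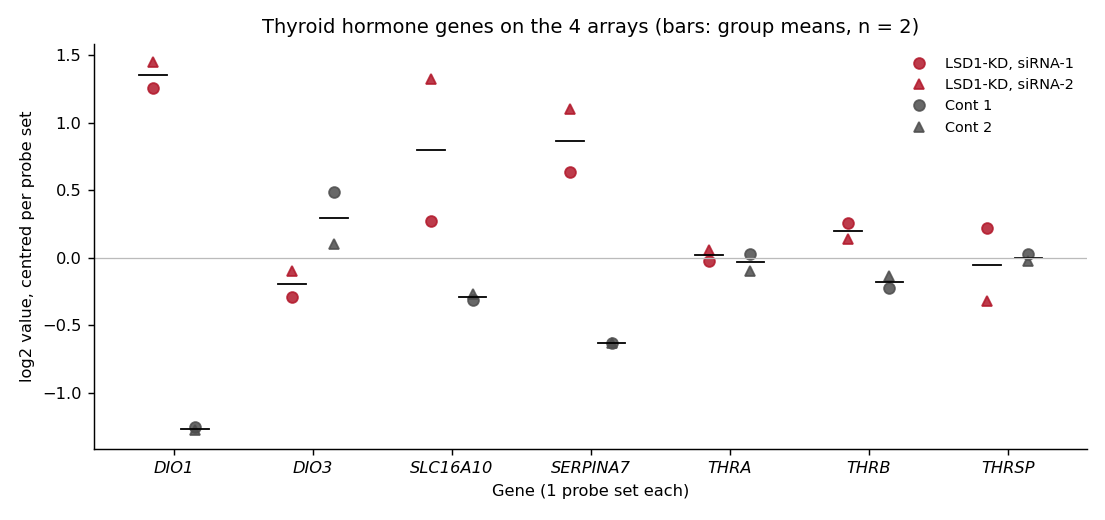
Centred log2 value (vertical axis) of each of the 7 genes on the LSD1-KD arrays (red, left) and the Cont arrays (grey, right), with circles for replicate 1 (siRNA-1 in LSD1-KD) and triangles for replicate 2 (siRNA-2). Short bars are group means of 2 arrays. DIO1 has the widest gap (means of 1.35 and -1.27), SLC16A10 has the widest spread between the siRNAs, and THRA and THRSP overlap.

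DIO1, the type 1 deiodinase of liver that converts T4 to T3, was the member with the largest difference. Its 1 probe set read 1.25 (siRNA-1) and 1.45 (siRNA-2) on the LSD1-KD arrays, and -1.25 and -1.28 on the Cont arrays. The groups lay far apart, and the spread within each (SD of 0.13 in LSD1-KD and 0.017 in Cont, n = 2 each) was small beside the gap. LSD1-KD exceeded Cont by 2.62 ± 0.12 (limma moderated SE, n = 2 arrays each), or 6.13-fold, rank 9 among the upward differences of all genes. Every SE in this report is of this kind, drawn toward a spread fitted on all genes. It is not the SE of the gene's own arrays alone. Taken singly, siRNA-1 gave 5.74-fold and siRNA-2 gave 6.55-fold. The siRNAs differed from each other by 0.19 ± 0.08, which did not pass a limma test fitted on all genes (adjusted p = 0.208). The probe set is of the _s_at kind, which can match more than 1 transcript, and no other DIO1 probe set was read.

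DIO3, the type 3 deiodinase that inactivates T4 and T3, went the other way. Values were -0.29 (siRNA-1) and -0.10 (siRNA-2) in LSD1-KD cells, against 0.48 and 0.10 in Cont cells. The groups did not overlap, but the Cont arrays lay 0.38 apart, nearly as far as the groups. The mean difference came to -0.49 ± 0.17 (SE, n = 2 arrays each), and it was -0.30 without the first Cont array and -0.68 without the second. The gap between the siRNAs (0.19) did not pass the limma test (adjusted p = 0.626). DIO2, the type 2 enzyme, is no member of the set and read 0 and -0.15 in LSD1-KD cells and 0.27 and 0 in Cont cells, so that its groups touched.

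SLC16A10 encodes a membrane transporter of aromatic amino acids that also carries thyroid hormone, T3 in particular. Its brightest probe set read 0.27 (siRNA-1) and 1.32 (siRNA-2) in LSD1-KD cells, against -0.31 and -0.27 in Cont cells. Both knockdown arrays were above both controls, with siRNA-2 well above siRNA-1. The difference of means was 1.08 ± 0.37 (moderated SE, n = 2 arrays per group), beside an SD within groups of 0.53. The difference was made up of 1.47-fold with siRNA-1 and 3.05-fold with siRNA-2. The siRNA-2 array exceeded the siRNA-1 array by 1.05 ± 0.08, and the limma adjusted p between these 2 arrays was 0.0447, the only one of the 7 genes under 0.05. Over all genes 3.78% passed upward and 2.64% downward. No gene had a smaller adjusted p than SLC16A10, so all these calls lay between its value and the threshold. Each siRNA is 1 array, so the spread comes from the Cont arrays, and a difference between siRNAs cannot be told apart from one between arrays. The call ended without _x_at and _s_at probe sets (0.87, adjusted p = 0.0827) and after quantile normalization (0.39, adjusted p = 0.292). Quantile normalization was run on the centred values and gives all arrays the same spread. It thus narrows the wide siRNA-2 array by construction. The other 2 probe sets of SLC16A10 gave 0.96 and 0.89 for the knockdown difference, and 0.65 and 0.87 for siRNA-2 over siRNA-1. All 3 thus had the same order of arrays by group.

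SERPINA7 encodes thyroxine-binding globulin, the main plasma carrier of T4, which the liver secretes. SERPINA7 stood at 0.63 (siRNA-1) and 1.10 (siRNA-2) in LSD1-KD cells, against -0.63 on each Cont array. The knockdown arrays were both above the controls, and the controls held the same value to the last digit, which was so for 455 of the 54675 probe sets. LSD1-KD exceeded Cont by 1.50 ± 0.19 (SE, n = 2 arrays each), with 2.40-fold for siRNA-1 and 3.31-fold for siRNA-2. The siRNAs differed by 0.47 ± 0.07, short of the threshold (limma adjusted p = 0.0669), and with equal controls the error of that value comes from the prior alone.

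**Figure D2:**
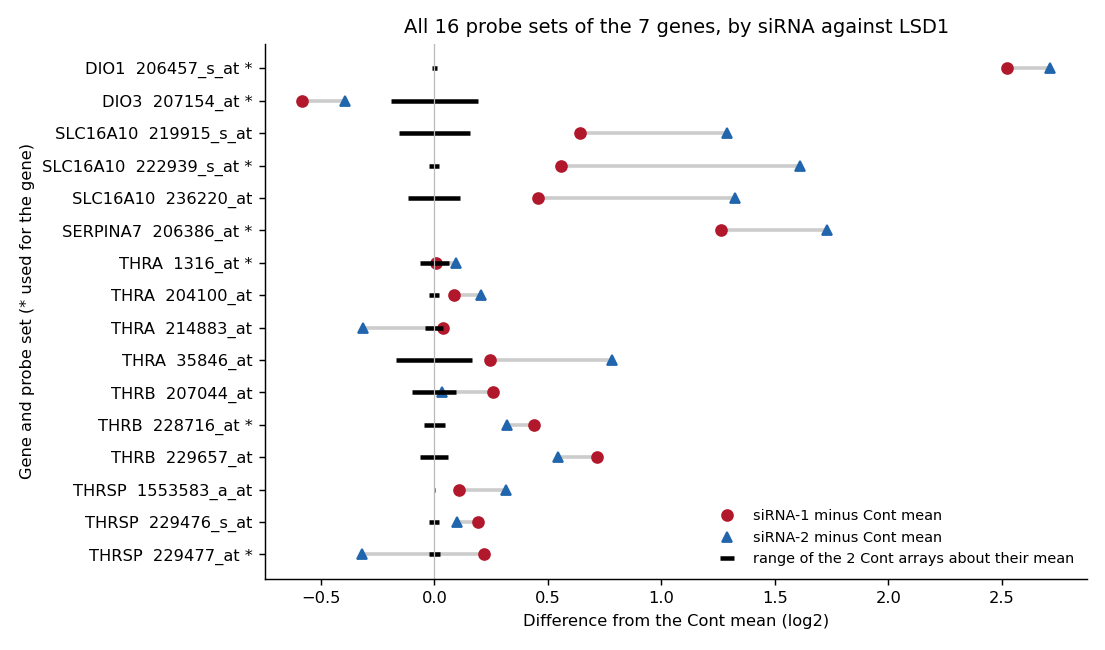
Difference from the Cont mean (log2, horizontal axis) for each of the 16 probe sets, with siRNA-1 as red circles, siRNA-2 as blue triangles and the range of the 2 Cont arrays as a black bar centred on 0. The siRNA points of SLC16A10 and of THRB each lie on 1 side of 0. Those of THRA (-0.32 to 0.78) and THRSP (-0.32 to 0.32) lie on both sides.

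THRB encodes the receptor form that is the main one in liver. Its brightest probe set read 0.25 (siRNA-1) and 0.14 (siRNA-2) in LSD1-KD cells, against -0.23 and -0.14 in Cont cells. The groups did not overlap and the difference was small, at 0.38 ± 0.11 (SE, n = 2 arrays per group) or 1.30-fold. A second probe set gave 0.63 without overlap, and the third gave 0.15 with overlapping groups. THRA encodes the receptor form that predominates in most other tissues, together with a splice variant that does not bind T3. The probe set used for it read -0.03 and 0.06 in LSD1-KD cells and 0.03 and -0.10 in Cont cells, with a difference of 0.05 ± 0.11. Its other probe sets gave 0.15, -0.14 and 0.51, and the groups overlapped in 2 of the 4 probe sets, so the array gives no single direction for THRA. The siRNAs did not pass the limma test of their difference for THRB (-0.12, adjusted p = 0.451) or THRA (0.09, adjusted p = 0.617).

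THRSP, also known as Spot 14, encodes a nuclear protein of lipid synthesis that thyroid hormone raises in rodent liver. The probe set used for it read 0.22 (siRNA-1) and -0.32 (siRNA-2) in LSD1-KD cells, against 0.02 and -0.02 in Cont cells. One siRNA was above both controls and the other below both, with a mean difference of -0.05 ± 0.21. The difference between the siRNAs, -0.54 ± 0.08, did not pass the limma test (adjusted p = 0.0624). The other 2 probe sets gave 0.21 and 0.15 with both knockdown arrays above both controls, the second of them in the lowest brightness class. In all, 11 of the 16 probe sets of the 7 genes were higher on both LSD1-KD arrays than on both Cont arrays, 1 was lower and 4 overlapped. No share over all probe sets was taken, so nothing is read from this count.

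The genes whose values over the 4 arrays were closest to those of DIO1, by Euclidean distance, were SMTNL2 (distance 0.12), the fast-muscle troponin gene TNNC2 (0.21), the manganese exporter gene SLC30A10 (0.33), SORBS2 (0.43) and the kininogen gene KNG1 (0.45). SMTNL2 read 1.20 and 1.52 in LSD1-KD cells and -1.24 and -1.20 in Cont cells. In SLC30A10 the siRNA-1 array (1.27) was above the siRNA-2 array (1.14), the other order than in DIO1. With 4 arrays such a likeness rests mainly on the size of the knockdown difference.

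The measured genes on either side of DIO1 on chromosome 1 had smaller differences. DIO1 was chosen with its large difference known, so nothing is read from that contrast. GLIS1, the third gene before DIO1 and a zinc-finger gene, was lower in LSD1-KD cells by a mean of -0.86. The 5 others lay between -0.15 (LRRC42) and 0.28 (IFT25), with NDC1 at 0.04, YIPF1 at 0.22 and TMEM59 at -0.08. Over the 42 neighbours of the 7 genes, 12 were higher and 11 lower without overlap, beside 23.7% and 25.3% of all genes. Their median difference was -0.01. Around DIO3, which lies in an imprinted region of chromosome 14, its antisense gene DIO3OS read 0.13 with overlapping groups, and DLK1 read -0.23, MEG3 0.01, MEG9 -0.02 and BEGAIN -0.16. Another DLK1 probe set gave 0.23.

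**Figure D3:**
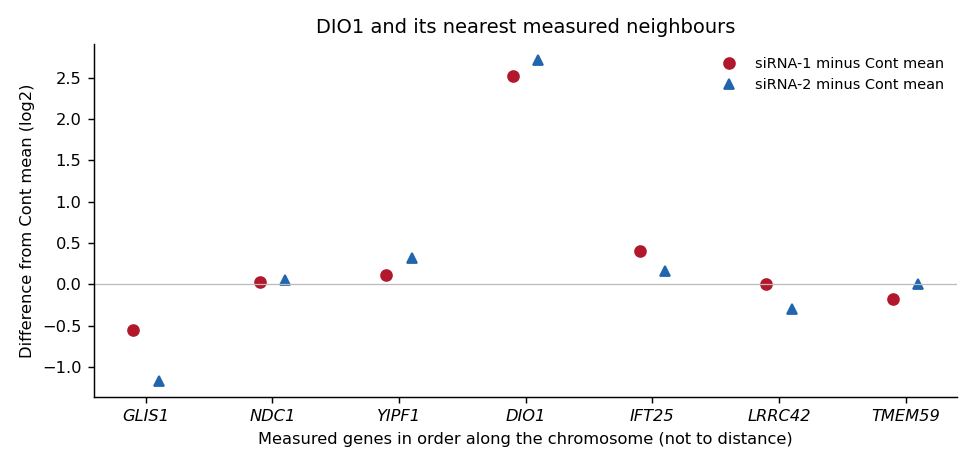
Difference from the Cont mean (log2, vertical axis) with siRNA-1 (red circles) and siRNA-2 (blue triangles) for DIO1 and the 3 nearest measured genes on each side, placed in gene order and not by distance. DIO1 stands at 2.52 and 2.71, and the neighbours lie between -1.17 and 0.41.

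Other genes of the pathway were read from fixed lists, the 7 genes left out. Of 94 such genes measured (the DLK1-DIO3 region included, marker lists left out), 0 passed the limma test of LSD1-KD against Cont over all genes (smallest adjusted p = 0.134), where 0.00506% of all genes passed upward and 0% downward. At an unadjusted p under 0.05 there were 26 of them, and 2892 of all 19775 genes. Without overlap, 33 were higher and 19 lower, with a median of 0.05, beside 23.7% higher and 25.3% lower over all genes. Both siRNAs are given below where their differences from Cont part.

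Transporters of thyroid hormone differed in both directions. Of 11, 1 was higher, 3 were lower and 7 overlapped, beside 23.7% higher and 25.3% lower over all genes. SLCO2B1, a liver organic anion transporter that accepts T4, read 0.56 and 1.32 in LSD1-KD cells and -0.56 and -0.58 in Cont cells, a difference of 1.51 ± 0.28 (SE, n = 2 arrays per group). Its 2 other probe sets above the lowest class agreed in direction (0.90 and 1.31). SLCO4A1, which accepts T3, read -0.75 and -1.58 in LSD1-KD cells and 0.75 and 0.81 in Cont cells, a difference of -1.94 ± 0.30, but its second probe set gave 0.04. SLC7A5 (-0.06), SLC7A8 (0.02) and SLC3A2 (-0.05), subunits of amino acid exchangers that take up the hormone, lay near 0. The hormone carriers of liver besides SERPINA7 had positive differences that did not pass the limma test. ALB, plasma albumin, read 0.94 ± 0.47 over Cont (siRNA-1 0.31, siRNA-2 1.56; adjusted p = 0.434). TTR, transthyretin, read 0.54 ± 0.23 (siRNA-1 0.24, siRNA-2 0.84; adjusted p = 0.387). The cytosolic T3-binding protein gene CRYM read 0.02 with overlapping groups.

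Genes that conjugate iodothyronines or remove their sulfate were higher in 4 and lower in 0 of 8 measured without overlap, beside 23.7% and 25.3% of all genes, with a median of 0.25. The 4 include SULT1A1 at only 0.07. The sulfotransferase gene SULT1C2 read 0.88 and 0.52 in LSD1-KD cells and -0.52 and -0.61 in Cont cells, a difference of 1.26 ± 0.16. STS, steroid sulfatase, read 0.64 and 0.46 in LSD1-KD cells and -0.46 and -0.52 in Cont cells, a difference of 1.04 ± 0.12. The 1 further SULT1C2 probe set (1.25) and all 3 of STS (0.59 to 1.34) above the lowest class had the same direction. SULT1B1 read 0.81 (siRNA-1) and 0 (siRNA-2) in LSD1-KD cells and -0.07 and 0 in Cont cells, so that its groups touched.

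Genes of selenocysteine incorporation and selenium supply, with some selenoproteins (DIO2, GPX1, GPX4, TXNRD1 and SELENOP), were mixed. Of 15, 3 were higher, 3 lower and 9 overlapping, beside 23.7% higher and 25.3% lower over all genes. The median was -0.05. With 1 LSD1-KD array left out, 5 to 7 lay above and 5 to 8 below both controls. With 1 array the criterion is looser, and no share over all genes was taken for it. SELENOP, the liver-made selenium carrier of plasma, read -0.30 and -0.75 in LSD1-KD cells and 0.39 and 0.30 in Cont cells. The difference was -0.87 ± 0.18, though its 2 other probe sets gave -0.14 and 0.40. LRP8, a receptor for that carrier, was lower by a mean of -0.98 ± 0.29 (siRNA-1 -0.58, siRNA-2 -1.38), and in its 2 other probe sets as well (-1.31 and -0.66). PSTK, a kinase in the making of selenocysteine, was higher (0.77 ± 0.29, siRNA-1 0.37, siRNA-2 1.17), and EEFSEC, the elongation factor for selenocysteine, read 0.42 ± 0.16 (siRNA-1 0.26, siRNA-2 0.58).

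**Figure D4:**
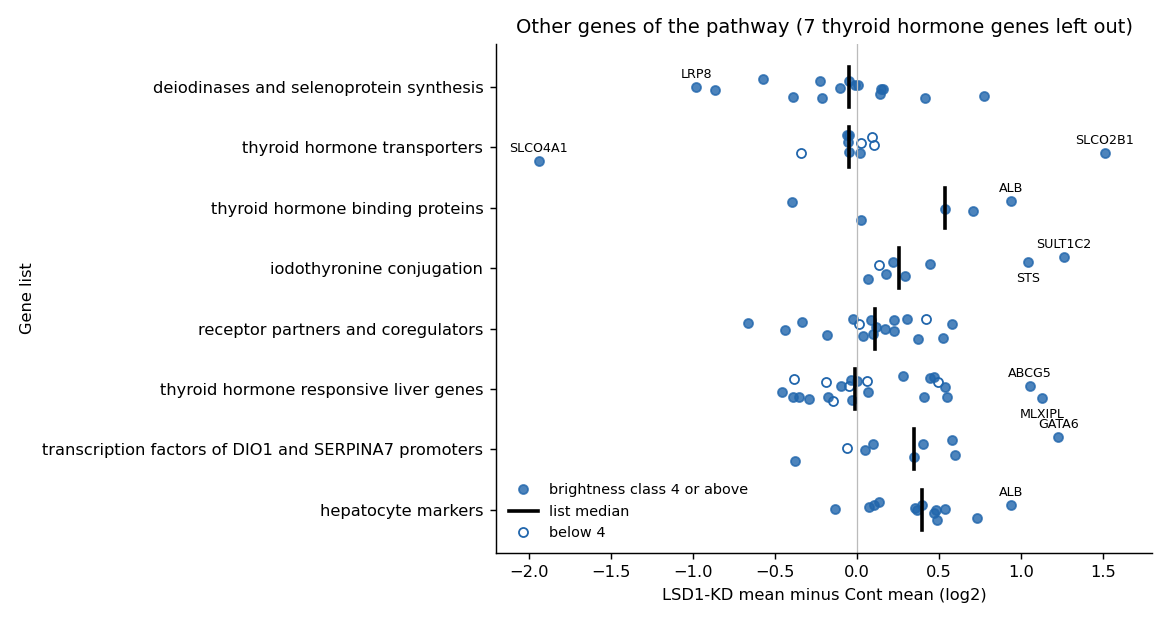
LSD1-KD mean minus Cont mean (log2, horizontal axis) for the measured genes of 8 lists (rows), 1 point per gene, filled for brightness class 4 or above and open below 4, with the list median as a black bar. Points are spread vertically at random within a row, and genes beyond 0.9 are named. Transporters hold the widest pair, SLCO2B1 at 1.51 and SLCO4A1 at -1.94, and the hepatocyte markers have a median of 0.40.

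Partners and coregulators of the receptors were higher in 6, lower in 4 and overlapping in 8 of 18, with a median of 0.11. The shares over all genes were 23.7% higher and 25.3% lower. The siRNA-1 array alone had a median of -0.07 and the siRNA-2 array 0.29. HDAC3, the deacetylase of the corepressor complex, was higher by 0.58 ± 0.16, and TBL1XR1 of the same complex was lower (-0.44 ± 0.19, siRNA-1 -0.19, siRNA-2 -0.68). The coactivator genes PPARGC1A (0.52 ± 0.21, siRNA-1 0.79, siRNA-2 0.25) and PPARGC1B (-0.66 ± 0.24, siRNA-1 -0.36, siRNA-2 -0.97) had opposite signs. The 3 other PPARGC1B probe sets above the lowest class ran from -0.71 to 0.04, and 2 of them were lower without overlap. The receptor partner RXRA read -0.25 (siRNA-1) and 0.33 (siRNA-2) in LSD1-KD cells, against 0.03 and -0.03 in Cont cells.

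Of 24 liver genes known to answer to thyroid hormone, 9 were higher, 6 lower and 9 overlapped, beside 23.7% higher and 25.3% lower over all genes. The median was -0.01, beside -0.00 over all genes. MLXIPL, the carbohydrate-response factor, was higher by 1.13 ± 0.28 (siRNA-1 0.76, siRNA-2 1.50) and the sterol transporter gene ABCG5 by 1.05 ± 0.38 (siRNA-1 0.52, siRNA-2 1.59). ACLY, an enzyme of fatty acid synthesis, split the same way (0.55 ± 0.30, siRNA-1 0.14, siRNA-2 0.96). FASN of the same pathway read 0.02 (siRNA-1) and 0.95 (siRNA-2) in LSD1-KD cells and -0.08 and -0.02 in Cont cells, a difference of 0.54 ± 0.33, and a second FASN probe set gave -0.00. KLF9, a direct receptor target, read -0.10 and the malic enzyme gene ME1 0.06, both with overlapping groups, and CPT1A, the gate of mitochondrial fatty acid entry, was lower at -0.39. The differences in this list ran from -0.46 to 1.13. DIO1 was chosen with its own difference known, so it is not ranked against this list.

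Transcription factors of liver promoters such as those of DIO1 and SERPINA7 were higher in 7 and lower in 1 of 9 measured without overlap, beside 23.7% and 25.3% of all genes, with a median of 0.35 (siRNA-1 alone 0.13, siRNA-2 alone 0.47). The 7 include FOXA2 at only 0.05 and CEBPA at 0.10. GATA6 read 0.47 and 0.90 in LSD1-KD cells and -0.61 and -0.47 in Cont cells, a difference of 1.23 ± 0.18, while its other probe set gave -0.17. FOXA1 was higher by 0.59 ± 0.30 (siRNA-1 0.18, siRNA-2 1.01) and GATA4, a factor that acts on liver promoters, by 0.58 ± 0.18 (siRNA-1 0.35, siRNA-2 0.80). The other FOXA1 probe set above the lowest class gave 0.43 with overlapping groups. The 2 others of GATA4 gave 0.09 and 0.37, and 1 of them was higher without overlap. The retinoic acid receptor gene RARA was higher by 0.40 ± 0.24 (siRNA-1 0.08, siRNA-2 0.72), and its other probe sets ran from -0.31 to 0.09. RARB, the gene next to THRB, was lower at -0.38. Markers of hepatocytes differed the same way as DIO1 and SERPINA7: 12 of 13 were higher without overlap and 0 lower, beside 23.7% and 25.3% of all genes, with a median of 0.40. The 12 include APOA2 at only 0.08, APOB at 0.11 and AFP at 0.14. The 2 other FGA probe sets overlapped (-0.00 and 0.15). None of the 13 markers passed the limma test. An unadjusted p under 0.05 was found in 5 of them, beside 2892 of all 19775 genes. The mean of the 13 markers was 0.15 and 0.31 on the LSD1-KD arrays and -0.10 and -0.20 on the Cont arrays. The part of this shift in the differences of DIO1 and SERPINA7 was not tested. Marker lists of other tissues had medians near 0, at 0.02 for thyroid follicle, 0.01 for stromal, -0.01 for blood cell and 0.09 for endothelial markers. Of the stromal markers, COL1A1 (1.88 ± 0.54, siRNA-1 1.10, siRNA-2 2.65) and ACTA2 (1.20 ± 0.38, siRNA-1 0.65, siRNA-2 1.75) were higher without overlap. Of the blood cell markers, only CD14 was, at 1.31 ± 0.30. The other probe sets of COL1A1 gave -0.18 to 0.06, and that of ACTA2 gave -0.05. DCN, ITGAM and the endothelial marker PECAM1 were lower without overlap, at -0.27, -0.26 and -0.54. Other probe sets of DCN (0.15) and PECAM1 (0.36 to 0.52) had positive differences.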

How the data were processed

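The authors deposited RMA values, per the submitters' processing notes, and these are taken as log2, the base RMA usually gives. RMA in its usual form corrects background, normalizes by quantiles and summarises probes, which removes shifts common to most probes. Neither the RMA version nor which arrays were normalized together is stated in the labels. The values show a further centring per probe set (largest row median 5.00e-07), so levels are gone. Brightness classes came from the rounding step of the stored values, and a row can fall by chance into a brighter class. Of the probe sets, 41097 have 1 gene symbol in the platform annotation, 1801 several and 11777 none here. Symbols were updated by gene identifier through RefSeq.

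For each gene the brightest probe set was used, then one without a letter suffix, then the first identifier. The LSD1-KD against Cont model used limma 3.58.1 (R 4.3.3, empirical Bayes, two-sided, Benjamini-Hochberg over 19775 genes, threshold 0.05). A second limma model with 3 groups (Cont, siRNA-1, siRNA-2) tested the siRNAs against each other. Each SE is the moderated one of its limma model. Fits were tested on simulated data. Array number limits the precision, and no depth exists. Same-numbered arrays were checked for pairing and their deviations correlated at 0.035. The LSD1-KD arrays also differ by siRNA, which could hide a pairing, so the low value does not exclude one. The LSD1-KD against Cont model was fitted without pairing.

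Members and lists were chosen with earlier results of these data known. Named genes are the members, the 5 genes nearest to DIO1, neighbours, and per list up to 4 genes with the largest difference without overlap in class 4 or above, with further list genes chosen after their values were seen. Alternatives changed the probe set, scaling, moderation, dim genes, replicate block or arrays.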

Additional observations from a re-analysis of the deposited data

Results flagged for a closer look

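In SLC16A10, the transporter gene, the siRNA-2 array read 1.05 above the siRNA-1 array (log2 scale, limma adjusted p = 0.0447). No gene had a smaller adjusted p, and all calls lay between this value and the threshold. With 1 array per siRNA and the spread taken from the Cont arrays, siRNA and array cannot be told apart. The value missed the threshold without _x_at and _s_at probe sets (0.87, adjusted p = 0.0827) and after quantile normalization (0.39, adjusted p = 0.292). Quantile normalization narrows the wide siRNA-2 array by construction. Both LSD1-KD arrays were above both controls, and all 3 probe sets had siRNA-2 higher.

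THRSP was the 1 gene of the 7 in which one siRNA array lay above and the other below both controls. The siRNA-2 array read -0.54 relative to siRNA-1, a difference that did not pass the limma test (adjusted p = 0.0624). The other 2 THRSP probe sets read 0.21 and -0.09 for the same difference, and both arrays lay above the controls in each.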

How the results depend on the processing

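With 2 arrays per group, a left-out array or the replicate block cannot move a knockdown difference beyond the SD between replicates, so these values are ranges and no measure of stability. THRA as the mean of its probe sets gave 0.14. Leaving out 1 array at a time gave 2.52 to 2.71 for DIO1, -0.68 to -0.30 for DIO3, 0.56 to 1.61 for SLC16A10, 1.26 to 1.73 for SERPINA7, -0.01 to 0.11 for THRA, 0.32 to 0.44 for THRB and -0.32 to 0.22 for THRSP. The sign of THRSP also turned with the mean of its probe sets (0.10) and after quantile normalization (0.03). DIO1 has only an _s_at probe set, so it has no value without that class. The 1 gene called over all genes (CD36, no member) dropped to 0 genes with the mean of probe sets (smallest adjusted p = 0.0516), robust moderation (0.0513), dim genes left out (0.0594) and the replicate block (0.434). Quantile normalization gave 404. Calls ranged from 0 to 4661 with 1 array left out, the highest without the siRNA-1 array. The 1271 calls between the siRNAs became 2108 with the mean of probe sets, 3188 with dim genes left out, 0 with _x_at and _s_at probe sets left out (SLC16A10 0.87) and 0 after quantile normalization (SLC16A10 0.39). Without _x_at and _s_at probe sets, the smallest adjusted p between the siRNAs lay just above the threshold. Quantile normalization gives the centred values of all arrays the same spread, which narrows the wide siRNA-2 array by construction. The cause of the other changes was not tested. With siRNA-1 or siRNA-2 alone, chosen after seeing the data, 5 of the 7 genes were above both controls, and 1 or 2 below. The same settings had 7 of 9 liver promoter factors and 12 or 13 of 13 hepatocyte markers above both controls. A gene beyond both controls on both LSD1-KD arrays stays so with either array alone, so such counts cannot fall. Coregulators had 6 to 12 above and 4 to 10 below, transporters 1 to 5 above and 5 to 6 below, selenoprotein synthesis 5 to 7 above and 5 to 8 below, and conjugation 6 above and 1 below. With 1 LSD1-KD array the criterion is looser, and no share over all genes was taken for it. Nothing is read from these counts. Without the replicate block the member differences were the same as with it.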

Other observations

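Some neighbours of the 7 genes were higher as well. Beside SERPINA7, RADX, a DNA replication fork gene, read 0.27 and 0.82 in LSD1-KD cells and -0.54 and -0.27 in Cont cells, and the ubiquitin ligase gene RNF128 read 0.39 and 0.25 in LSD1-KD cells and -0.30 and -0.25 in Cont cells. Beside SLC16A10, REV3L, the catalytic subunit of DNA polymerase zeta, read 0.27 and 1.45 in LSD1-KD cells and -0.33 and -0.27 in Cont cells, close to the values of SLC16A10 itself. These genes were picked after their values were seen, and none passed the limma test (adjusted p = 0.253, 0.206 and 0.329).

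Of 3 probe sets annotated to both THRA and its opposite-strand neighbour NR1D1, a clock repressor, 2 were lower in LSD1-KD cells without overlap (-0.57 and -0.31) and 1 overlapped (-0.13). They cannot be assigned to 1 gene and were not used for THRA. PAX8, the thyroid transcription factor gene, read 0.14 and 0.24 in LSD1-KD cells and -0.22 and -0.14 in Cont cells, while its other probe sets ran from -0.20 to 0.52.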
